A study of Caenorhabditis elegans with 3 samples.

Results

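The F-box and MATH-domain genes of the nematode Caenorhabditis elegans were taken as all genes whose symbol begins with fbxa, fbxb, fbxc, math or bath, followed by a hyphen and a number. Only probes with a single gene symbol were used. The rule found 341 probes for 337 of the 15168 genes named on the array: 137 fbxa, 84 fbxb, 40 fbxc, 44 math and 32 bath genes. Of these, 333 had a value on all 3 arrays and were tested, and no filter on low values was applied.

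Proteins with an F-box dock on SKP1-like adaptors of a cullin ligase, the SCF complex, and carry a further domain that is thought to hold the protein to be marked with ubiquitin. Proteins with a BTB and a MATH domain, named BATH in this worm, join both jobs in a single chain and dock on the cullin CUL-3, while the math genes encode MATH-domain proteins. Both families have grown far larger in this nematode than in most animals, often as strings of neighbouring copies. The substrates of most members are not known.

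RNA of adult hermaphrodites, which the submitters label with the unexplained code TP09, was measured with 3 two-colour arrays. On each one, 1 adult RNA prep, in channel 2, was set against RNA of a mixed wild-type reference, in channel 1. The labels give no strain, genotype or age in hours for the adults, do not say what was mixed in the reference, and do not mention whether separate cultures were used for the preps. The spread between preps may therefore be technical, and the number of arrays limits the precision.

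Each value is a log2 ratio, adult RNA over reference RNA, after the arrays were centred on their medians. Such values measure a difference between 2 RNAs and not a level, so genes are not ranked by abundance here. The labels do not state the direction of the ratio. Adult over reference is the likely one, because the labels name the adult prep first and place it in channel 2. With the sign turned, each higher value here would be a lower one. A gene was called where limma gave an adjusted p under 0.05 (Benjamini-Hochberg over all 15092 genes tested).

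By the marker lists, the adult RNA differed from the reference in germline and larval genes. All 9 P granule and germline markers and 10 of 11 oocyte and eggshell markers were called higher, with median log2 ratios of 1.81 and 1.54. Of 9 larval epidermis and moulting markers, 8 were called lower (median -1.46), and the adult collagen gene col-19 stood at 2.12 ± 0.15 (SD, n = 3). Lower calls were also made for 28 of 36 sperm, 6 of 9 neuron and 2 of 5 muscle markers, while of 6 intestine markers 1 was called higher and 2 lower. In RNA of whole worms, fewer cells of a type and less RNA per cell cannot be told apart. The part of these tissues in the ratios of the F-box and MATH-domain genes was not tested.

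Of the 333 genes tested, 52 were called higher and 72 lower in adults, 124 or 37.2% in all. Among all genes tested, 20.9% were called higher, 23.5% lower and 44.4% either way. The share of the 2 families together thus lay below that of all genes. All 124 called members had 1 sign on all 3 arrays, and 213 of the 333 members (64%) did so, against 67.6% of all genes. Mean ratios over 2-fold from 0 were seen for 11 members on the higher side, against 6.54% of all genes, and for 23 on the lower side, against 9% of all genes. Together these made up 10.2% of members and 15.5% of all genes. The median of all members, 0.03, lay close to that of all genes, -0.02.

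The prefixes differed from one another by their counts. Most bath genes were called higher (18 of 32). Most fbxa and math genes were not called, and their calls were mostly lower (46 of 136 and 12 of 44 genes tested). The fbxb genes had higher calls only, and fbxc genes went both ways. Among all genes, 20.9% were called higher and 23.5% lower. The higher share of fbxb (19.8%) and the lower share of math (27.3%) lay near these. Median log2 ratios were 0.47 for bath, 0.23 for fbxb, 0.14 for fbxc, -0.16 for math and -0.17 for fbxa. The median SD of a gene over the 3 arrays ran from 0.17 for bath to 0.33 for math, with 0.21 over all genes. Members of a family are not replicates and close copies can share signal on an array, so these counts and medians are descriptions.

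**Figure D1:**
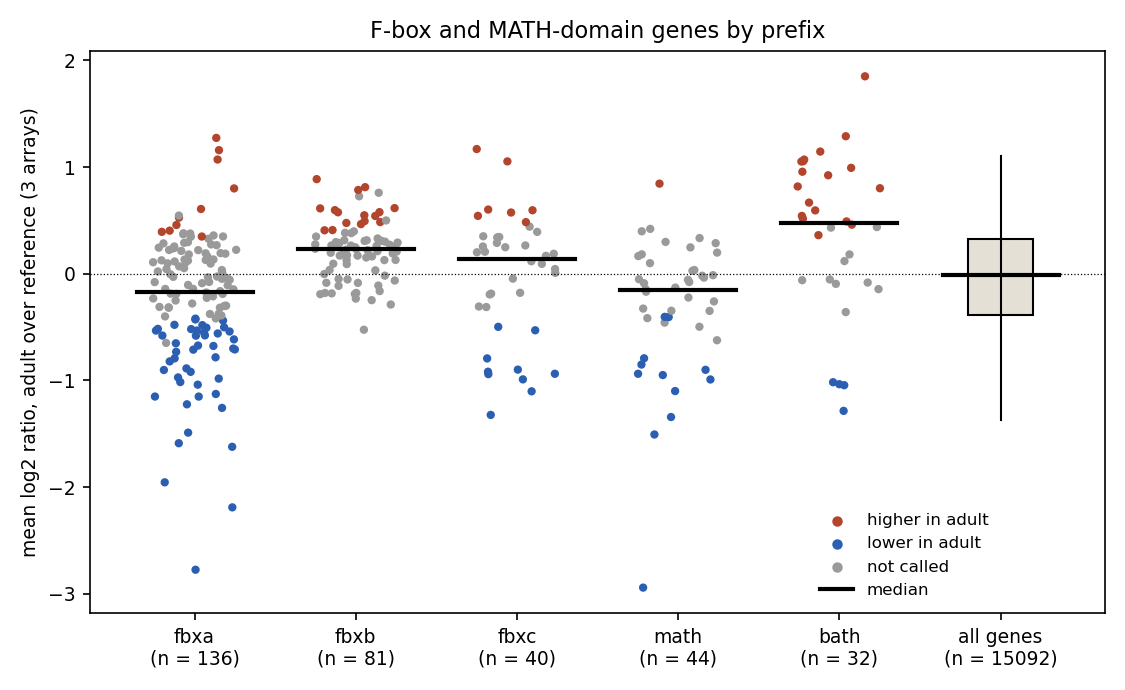
Each point is the mean log2 ratio (adult over reference, 3 arrays) of 1 gene, by prefix and coloured by its limma call, with black lines at the medians. For all 15092 genes the box spans the quartiles, -0.39 and 0.32, and the line spans the 5th to 95th percentiles. The bath genes sit highest, the fbxb genes are the most tightly packed, and the fbxa and math genes reach furthest down, to -2.77 and -2.94.

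**Figure D2:**
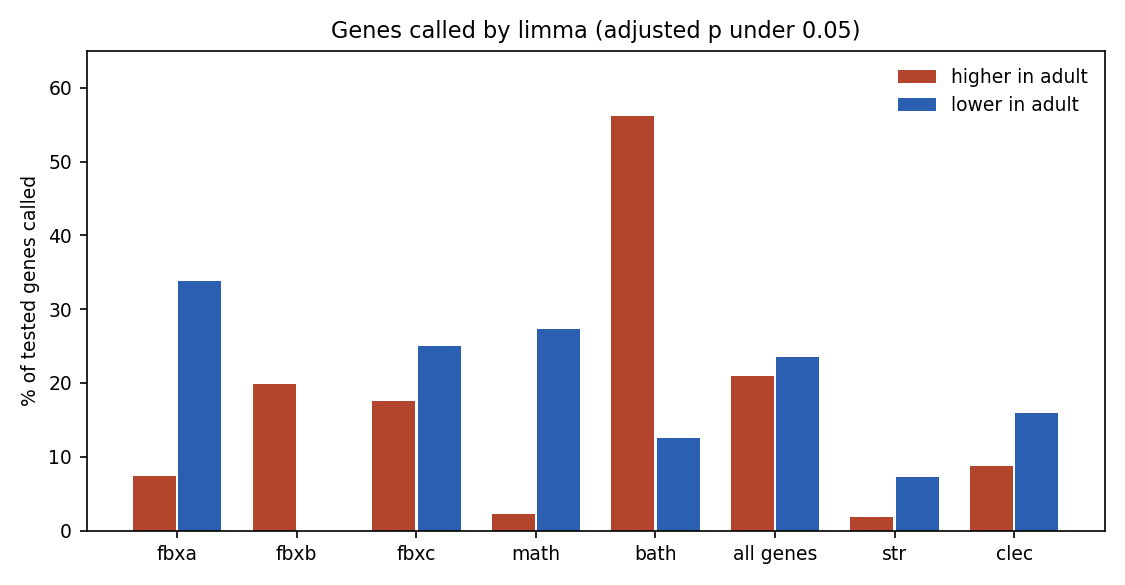
Bars give the percentage of tested genes called higher or lower in adults (limma, adjusted p under 0.05) for the 5 prefixes, for all genes, for str chemoreceptors and for clec C-type lectins. The bath bar for higher calls stands at 56.2% against 20.9% of all genes, and fbxb has no bar for lower calls.

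The fbxa genes pair an F-box with a domain they share with FOG-2, a regulator of germline sex in this worm. Of the 136 tested, 10 were called higher (7.35%, against 20.9% of all genes) and 46 lower (33.8%, against 23.5%). The other 80 were not called, so 41.2% were called either way, against 44.4% of all genes. The medians were close on the 3 arrays, at -0.17, -0.14 and -0.14 on the arrays of preps 1, 2 and 3. The middle 50% of the genes lay between -0.55 and 0.18. Over 2-fold differences were seen for 3 genes on the higher and 13 on the lower side. These were 11.8% of fbxa genes, against 15.5% of all genes. Without replicate 2, 5 genes were called higher and 42 lower, and with array weights 17 and 54. Among all genes the calls moved too, from 3152 higher and 3546 lower in the main fit. They were 2697 and 3234 without replicate 2, and 3963 and 4346 with array weights.

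The lowest fbxa gene was fbxa-24 (F54D10.2), with -2.61, -2.80 and -2.91 on the arrays of preps 1, 2 and 3. It was 6.84-fold lower in adults, and its arrays lay close together (adjusted p = 2.36e-05, limma). For fbxa-164 (C08E3.7) the arrays gave -2.24, -1.62 and -2.71, a mean of -2.19 ± 0.55 (SD, n = 3; limma adjusted p = 0.000196). The third, fbxa-69 (F54B8.3), had -2.32, -1.45 and -2.10, and was 3.87-fold lower. In both of these genes prep 2 was the nearest to 0.

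On the higher side the likeness of the arrays also varied from gene to gene. The ratios of fbxa-192 (F57G4.8) were 1.98, 1.01 and 0.82, with prep 1 about 1 log2 unit above the others, and its mean was 1.27 ± 0.62 (limma adjusted p = 0.00278). In fbxa-72 (F31F4.15) prep 3 was the high one, with 0.70, 1.05 and 1.73, a 2.23-fold higher level in adults. Unlike these, fbxa-215 (Y45F10C.3) had nearly the same value on each array, 1.07, 1.03 and 1.11 (adjusted p = 0.000392, limma).

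The widest spreads among fbxa genes came from prep 1. The gene fbxa-199 had -2.04, -0.52 and -0.49, which passed the test at a mean of -1.01 (limma adjusted p = 0.0253). A like pattern in fbxa-81, with -1.65, -0.07 and -0.23, did not pass (limma adjusted p = 0.111). Its 2 higher arrays lay near 0.

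The fbxa-158 gene (C08E3.10) has a known role: with the cullin CUL-6 and the adaptors SKR-3 and SKR-5 it forms a ligase of the worm's response to intracellular pathogens and to chronic heat. It was lower in adults on each array, with -1.16, -0.72 and -1.03, a 1.96-fold lower level (limma adjusted p = 0.00106). Its partners were lower too. The skr-5 gene had -2.18, -2.94 and -2.57, or 5.92-fold lower (limma adjusted p = 5.83e-05), and skr-3 had -1.46, -1.49 and -1.37, or 2.71-fold lower. The cul-6 gene lay nearer to 0, with -0.57, -0.26 and -0.31, and passed narrowly (limma adjusted p = 0.045).

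The fbxb genes, which also begin with an F-box, formed the narrowest group. Of 81 tested, 16 were called higher (19.8%) and 0 lower by limma, against 23.5% lower calls among all genes; at an unadjusted p under 0.05 the counts were 23 higher and 0 lower. By their means over the 3 arrays, none of the 81 lay over 2-fold from 0, against 15.5% of all genes; without replicate 2, 6.17% did. Their mean ratios ran from -0.52 to 0.89, with the middle 50% between 0.04 and 0.38, and 62 of the 81 lay above 0. The medians on the arrays of preps 1, 2 and 3 were 0.37, 0.07 and 0.19, so the shift above 0 was smallest in prep 2. The median of the mean ratios was 0.12 with centring by runs of rows, in place of 0.23.

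The count for fbxb genes depended on the arrays used. Without replicate 3, limma called 6 of 82 (5 higher and 1 lower). With arrays weighted by their fit to the others (0.37 for replicate 1) it called 29, all of them higher. Among all genes, 4948 of 15116 were called without replicate 3 and 8309 of 15092 with array weights. In the main fit 6698 of 15092 were called. The arrays also ranked these genes less alike than other members. Across the 81 genes, Pearson's r was 0.30 for preps 1 and 2, 0.31 for preps 1 and 3 and 0.48 for preps 2 and 3; across all 333 members it was 0.74, 0.79 and 0.87. These correlations describe genes that share arrays and a reference, and a group with a narrow range of ratios leaves little to rank.

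The highest called fbxb gene was fbxb-47 (F58E1.14), with 1.26, 0.65 and 0.75 on the arrays of preps 1, 2 and 3, 1.85-fold higher (limma adjusted p = 0.00279). For fbxb-37 (T16A1.8) prep 2 was low, with 1.10, 0.32 and 1.01. The same array was the lowest for fbxb-22 (Y56A3A.10), with 1.33, 0.32 and 0.71, and both genes passed (limma adjusted p = 0.0075 and 0.0135). Single arrays set the mean in the fbxb genes with the widest spread. The fbxb-40 gene stood near 0 on the arrays of preps 1 and 2, at -0.07 and 0.13, and at 2.12 on that of prep 3. In fbxb-57 prep 1 was the high array, with 1.81, -0.03 and 0.50, and neither gene passed (limma adjusted p = 0.169 and 0.0862).

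The fbxc genes, the third F-box group, fell on both sides of 0. Of 40 tested, 7 were called higher (17.5%) and 10 lower (25%), shares close to the 20.9% and 23.5% of all genes. With centring by 32 runs of consecutive rows, 3 were called higher and 11 lower. Among all genes, that centring gave 3078 higher and 3777 lower calls, against 3152 and 3546 in the main fit. The median of 0.14 was not stable, with medians of -0.03, 0.03 and 0.23 on the arrays of preps 1, 2 and 3. It was 0.06 without replicate 3 and 0.03 with centring by runs of rows, and it turned to -0.02 when replicate 1 was left out and the other arrays were centred by runs of rows.

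The lower fbxc calls held all 7 genes with the numbers 1 to 7. These were fbxc-3 (F58H7.8) at -1.32 ± 0.39, fbxc-2 (C44C8.3) at -1.10 ± 0.15, fbxc-5 (C44C8.1) at -0.99 ± 0.17, fbxc-6 at -0.94, fbxc-4 at -0.94, fbxc-1 at -0.92 and fbxc-7 at -0.53; the last 4 were named after their values were seen. On single arrays fbxc-3 had -1.72, -0.93 and -1.32, and fbxc-2 had -1.22, -0.93 and -1.15. Prep 2 was the nearest to 0 in both, and no array of either came above -0.9. Whether the probes of these genes share signal was not tested.

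Higher fbxc calls were led by fbxc-50 (C17F4.5), with 1.15, 1.06 and 1.29, a 2.25-fold higher level (limma adjusted p = 0.000319). The fbxc-44 gene (C16A11.6) followed with 1.12, 1.17 and 0.87, or 2.07-fold. Next came fbxc-20 (F42G2.3), with 0.91, 0.32 and 0.58, whose call was lost on centring by runs of rows (limma adjusted p = 0.0528). The widest spreads were those of fbxc-26, with 1.30, -0.29 and 0.31, and fbxc-37, with -0.98, 0.03 and 0.02. Prep 1 was the farthest from 0 in both, and neither passed (limma adjusted p = 0.229 and 0.278).

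Among the math genes, which encode MATH-domain proteins, higher calls were nearly absent. Of 44 tested, 1 was called higher (2.27%, against 20.9% of all genes) and 31 were not called. Lower calls numbered 12 (27.3%), a share near the 23.5% of all genes. The array medians were -0.41, 0.01 and -0.25 for preps 1, 2 and 3, so prep 2 lay near 0 and prep 1 farthest from it. The median of the mean ratios was -0.16, but -0.29 without replicate 2 and -0.29 with centring by runs of rows. The ratio on the array of prep 1 minus the mean of the other arrays had a median of -0.43 over the math genes, against -0.02 over all genes. Centring by 32 runs of consecutive rows sets the median of each run to 0 on each array, which can lessen drift along the rows. After it, the median of this difference over the math genes was -0.20. The count moved with these choices: with that centring 20 math genes were called, 1 higher and 19 lower, and with array weights 23, of which 6 were higher and 17 lower. Among all genes, 6855 were called with that centring and 8309 with array weights, against 6698 in the main fit.

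The lowest of all 333 members was math-38 (T07H3.3), with -3.30, -2.48 and -3.05, or 7.68-fold lower (limma adjusted p = 4.26e-05). After it came math-27 (F36H5.2), with -2.05, -1.15 and -1.32, and math-3 (C08F1.4), with -1.94, -0.99 and -1.10. Prep 1 was the lowest array in all of these, and every array stayed below -0.9. The single higher call was that of math-33 (H19N07.2), a ubiquitin-specific protease of the USP7 kind that stabilises the stress regulator DAF-16. Its ratios were 0.88, 0.78 and 0.88, a 1.80-fold higher level in adults with an SD of 0.06 (limma adjusted p = 0.00112). The spread was widest for math-2, with -1.10, 0.35 and 0.09, and for math-30, with -1.37, 0.02 and -0.52, and neither passed (limma adjusted p = 0.53 and 0.0742).

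The bath genes had more higher than lower calls. Of 32 tested, 18 were called higher (56.2%, against 20.9% of all genes), 4 lower (12.5%, against 23.5%) and 10 were not called. Their median was 0.47, or 1.39-fold higher, with 0.36, 0.58 and 0.52 on the arrays of preps 1, 2 and 3. Over 2-fold differences were seen for 6 genes on the higher and 4 on the lower side, 31.2% of bath genes against 15.5% of all genes. The arrays ranked these genes closely alike, with r of 0.90, 0.92 and 0.93 over the 32 genes. Leaving out 1 replicate gave 16 to 22 called bath genes, of which 12 to 18 were higher and 4 lower. With centring by 32 runs of rows, 13 were called higher and 4 lower. Among all genes, leaving out 1 replicate gave 4948 to 7102 calls and that centring 6855, against 6698 in the main fit.

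The highest of all 333 members was bath-1 (F59H6.9), with 1.94, 1.93 and 1.68 on the arrays of preps 1, 2 and 3, or 3.60-fold higher (limma adjusted p = 7.27e-05). The bath-4 gene (F52C6.8) had 1.16, 1.36 and 1.34, or 2.44-fold, and bath-5 (F59H6.11) had 1.29, 1.19 and 0.95, or 2.21-fold. In these genes every array was above 0.9. The most uneven higher call was bath-7 (F52C6.10), with 0.23, 1.34 and 0.88, and it was lost without replicate 2 (limma adjusted p = 0.0528). The second widest spread, that of bath-23 with 0.36, 0.09 and 0.86, did not pass (limma adjusted p = 0.0701).

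The 4 lower bath genes lay close together in value. The bath-46 gene (T07H3.2) had -1.70, -1.06 and -1.09, a 2.44-fold lower level (limma adjusted p = 0.000648). In bath-26 (T07H3.6) the arrays gave -1.05, -0.74 and -1.34, and in bath-38 (F52H3.3) they gave -1.26, -0.93 and -0.91. The remaining one, bath-47, named only after a look at its value, had a mean of -1.02 ± 0.13. The lowest bath gene that was not called was well apart from them, as the plot by prefix shows.

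**Figure D3:**
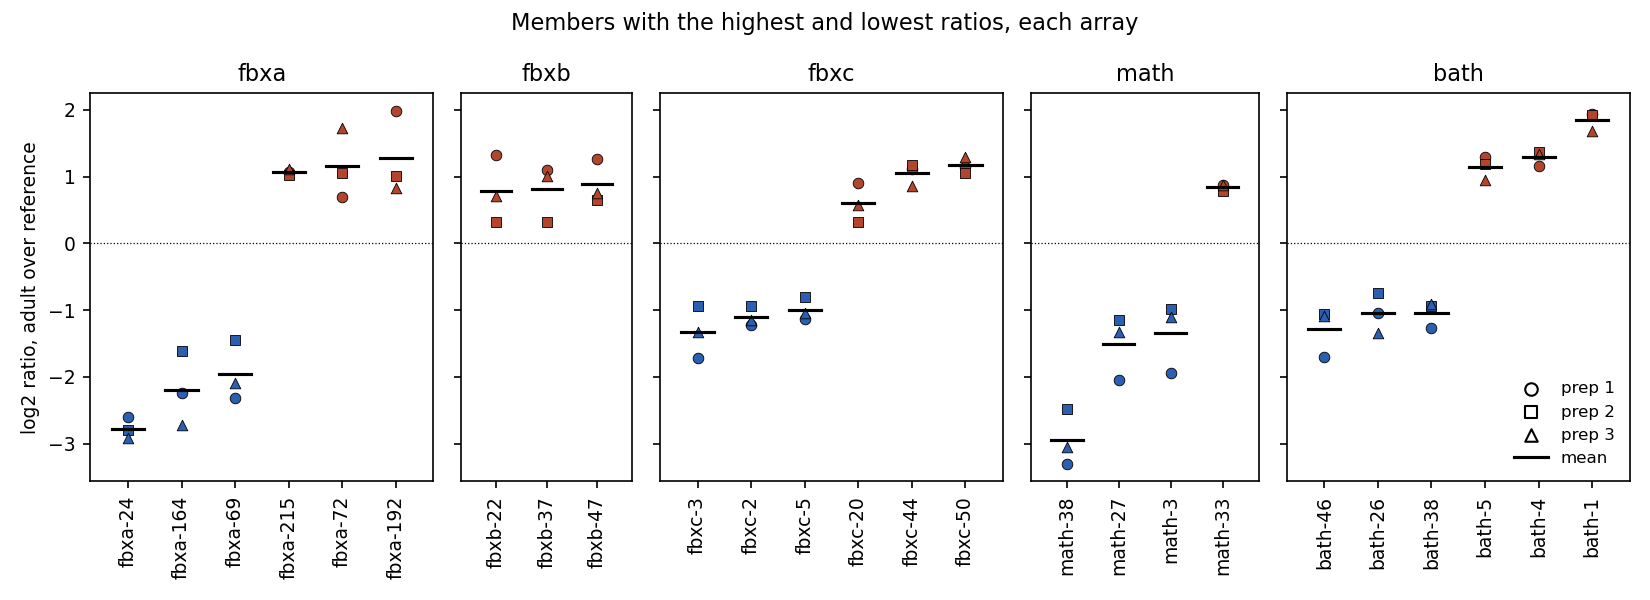
Points give the log2 ratio (adult over reference) on each of the 3 arrays for the members with the highest and lowest mean among called genes, up to 3 each way per prefix, with black lines at the mean over the arrays. All arrays of a gene lie on 1 side of 0, which the choice of genes required, and the arrays of fbxa-192, fbxa-72 and fbxa-164 are spread over about 1 log2 unit.

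Many members lie beside another of the same prefix in the gene order of the WBcel235 RefSeq gene table, read along the genes tested here. Such runs of 2 or more held 72 of 136 fbxa, 42 of 81 fbxb, 22 of 40 fbxc, 34 of 44 math and 15 of the 30 bath genes with a place in that table. Direct neighbours were closer in ratio than gene pairs of the same prefix in general. The median absolute difference in mean log2 ratio was 0.34 between neighbouring fbxa genes against 0.52 over all fbxa pairs, 0.18 against 0.28 for fbxb, 0.36 against 0.57 for fbxc, 0.37 against 0.50 for math and 0.36 against 0.67 for bath. Over all genes tested, neighbours differed by 0.48 and all pairs by 0.61. Shared signal between close copies on the array was not tested as a part of this.

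In some runs all genes were called on 1 side. The genes of the runs are named for their place and were chosen after their values were seen. All 5 genes of the run fbxa-185, fbxa-186, fbxa-187, fbxa-188 and fbxa-189 were called lower, between -1.22 and -0.58. Likewise the run of fbxc-1, fbxc-2, fbxc-4, fbxc-5 and fbxc-3 had 5 lower calls of 5, between -1.32 and -0.92. In the run of 6 genes from fbxa-164 to fbxa-160, which holds fbxa-158, 5 were called lower, and the sixth, fbxa-166, stood at -0.14. Of the longest fbxa run, 11 genes from fbxa-55 to fbxa-51, 7 were called lower and 4 were not called. The share of lower calls among all genes was 23.5%.

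Other runs showed no call at all or calls on the higher side. The longest run of math genes, 12 genes from math-15 to math-9, had 0 calls by limma (2 at an unadjusted p under 0.05), with mean ratios between -0.33 and 0.40. The run of 6 genes from fbxa-110 to fbxa-112 also had 0 calls by limma (0 at an unadjusted p under 0.05), between -0.03 and 0.18. Shorter runs of bath genes were called higher throughout, with bath-1, bath-3 and bath-5 between 1.05 and 1.85, and bath-4, bath-7 and bath-2 between 0.82 and 1.29. The run of bath-4, bath-7 and bath-2 follows directly on 6 math genes from math-25 to math-31, of which 3 were called lower and 3 were not called. Within that string of 9 genes the mean ratio thus ran from -1.10 to 1.29. Both ends of the math run lay above 0 without a call, with math-25 at 0.42 and math-31, the direct neighbour of bath-4, at 0.29. In another mixed string of 7 genes, 4 bath genes from bath-46 to bath-33 stood beside fbxa-161, fbxa-162 and fbxa-163, and 5 of the 7 were called lower. Over all genes, 20.9% were called higher and 23.5% lower.

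Lower calls were more frequent in runs than among genes that stood alone for fbxa, fbxc and math. In runs 32 of 72 fbxa genes were called lower, against 14 of 64 that stood alone. For fbxc the counts were 8 of 22 against 2 of 18, and for math 11 of 34 against 1 of 10. The few lower calls of bath genes were 3 of 15 in runs and 1 of 15 alone. Among all genes tested, 23.5% were called lower and 20.9% higher. The higher calls of bath genes were split evenly, with 8 of 15 in runs and 8 of 15 alone. For fbxb the higher calls also numbered 8 in runs, of 42 genes, and 8 alone, of 39 genes. These counts are descriptions, since the genes of a run may share signal.

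**Figure D4:**
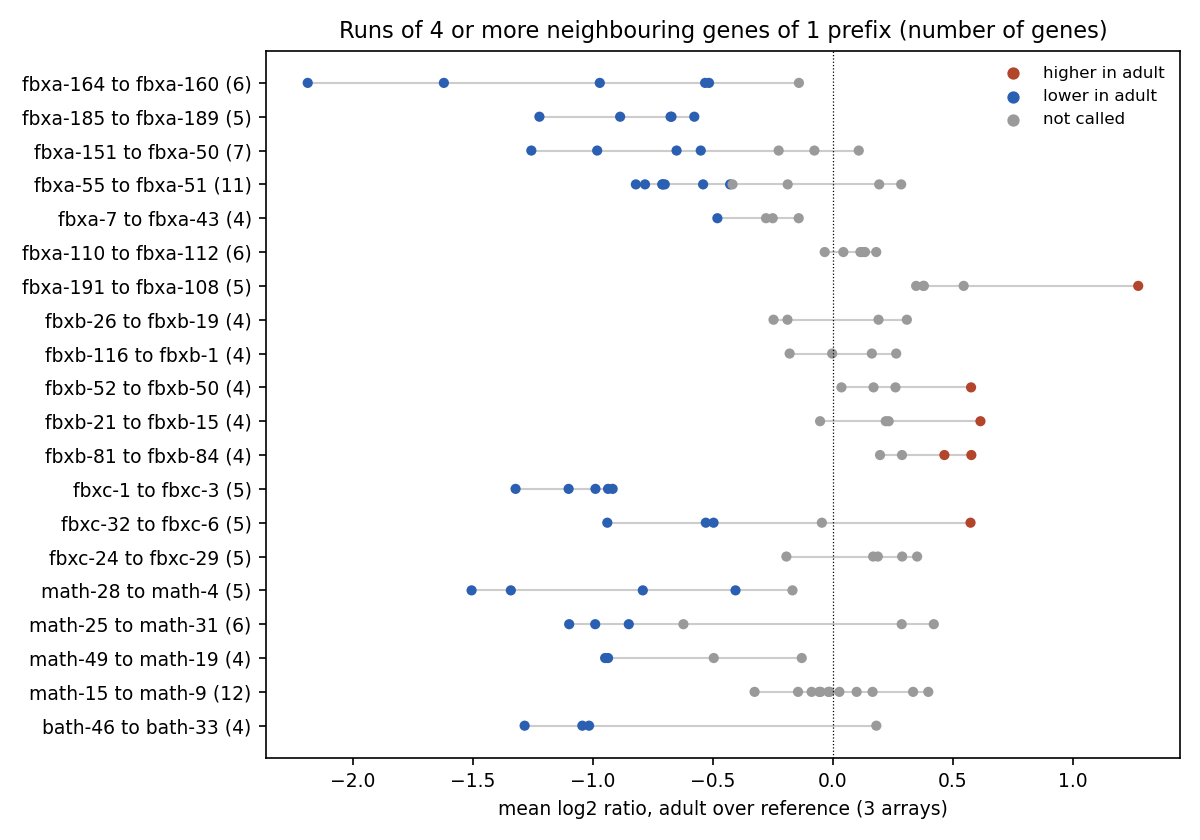
Each row is a run of 4 or more neighbouring genes of 1 prefix, with the number of genes in brackets, and each point is the mean log2 ratio (adult over reference, 3 arrays) of 1 gene, coloured by its limma call. The 5 genes of the run from fbxa-185 to fbxa-189 and the 5 from fbxc-1 to fbxc-3 are all called lower, while the 12 from math-15 to math-9 straddle 0 with none called.

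Genes of cullin ligases, among them the SCF parts that F-box proteins dock on, went both ways. The gene of CUL-3, the cullin that BATH proteins dock on, was listed but not measured. Of 23 cullin, RING and SKP1-related genes measured, 9 were called higher, 6 lower and 8 were not called, with a median of 0.23. The share called was 65.2%, against 44.4% of all genes. Without replicate 3, 9 of the 23 were called, and 4948 of 15116 genes in all, against 6698 of 15092 in the main fit. The cul-1 gene, the scaffold of SCF ligases, had 1.62, 1.06 and 1.26 and was 2.49-fold higher in adults (limma adjusted p = 0.000386). The cul-4 gene, the scaffold of another ligase class, stood at 0.71 ± 0.05. The RING subunit gene rbx-1 did not pass, with 0.29, 0.43 and 0.27 (limma adjusted p = 0.0638).

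Among the SKP1-related adaptor genes, skr-17 at 0.93, skr-11 at 0.88, skr-9 at 0.68, skr-8 at 0.65, skr-2 at 0.58, skr-15 at 0.57 and skr-13 at 0.56 were called higher. Called lower were skr-5 and skr-3, given above, skr-1, which was 2.01-fold lower, skr-19 at -0.85 and skr-20 at -0.53. The closely related skr-1 and skr-2 had opposite signs. For skr-1 the arrays gave -1.44, -0.99 and -0.59, and for skr-2 they gave 0.37, 0.68 and 0.70. No array of one gene overlapped with those of the other, but the probes of such close relatives can share signal.

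**Figure D5:**
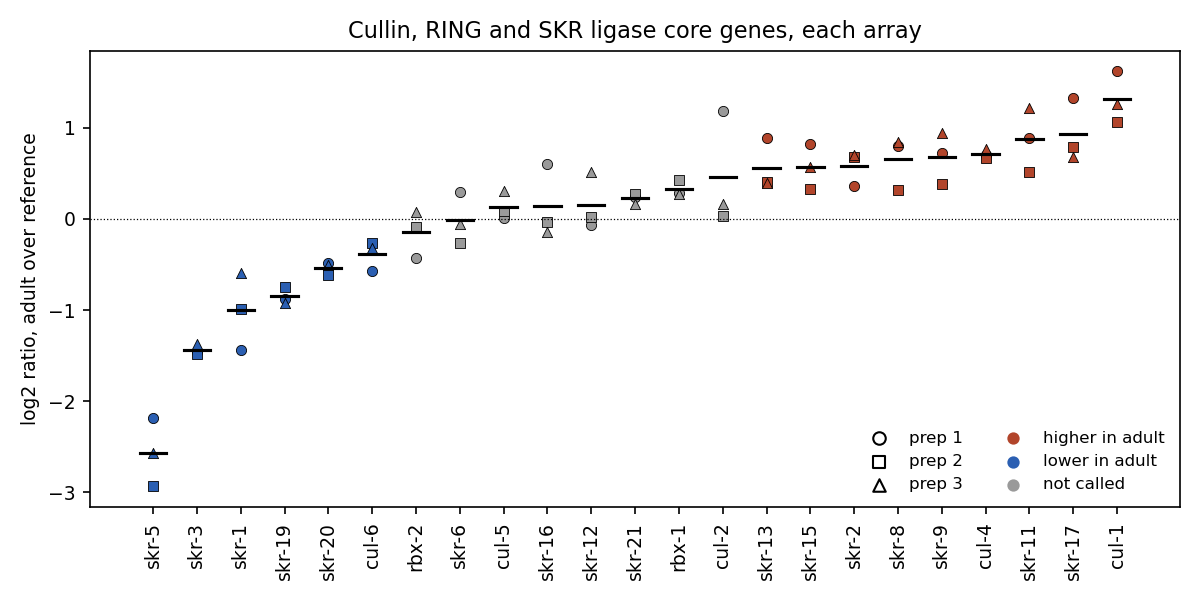
Points give the log2 ratio (adult over reference) on each of the 3 arrays for 23 cullin, RING and SKR genes in order of their mean, which is drawn as a black line, coloured by the limma call. The skr-5 gene lies lowest, between -2.94 and -2.18, and cul-1 highest, between 1.06 and 1.62.

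F-box and MATH genes that carry names of their own were mostly higher in adults. Of 9 measured, 6 were called higher, 1 lower and 2 were not called, with a median of 0.57, and 4 were called without replicate 3. The share called was 77.8%, against 44.4% of all genes. Without replicate 3, 4948 of 15116 genes in all were called. The highest, fsn-1, an F-box gene of synapse formation, had 1.05, 1.03 and 1.04, and was 2.05-fold higher (limma adjusted p = 0.000436). The lower one, dre-1, which times larval development, had -0.23, -0.54 and -0.79 (adjusted p = 0.0223, limma). The genes not called were ftr-1, a relative of fog-2, at 0.18 ± 0.12, and mel-26 at 0.22 ± 0.23, both named after their values were seen. MEL-26 is a CUL-3 adaptor with a BTB and a MATH domain that removes the meiotic katanin MEI-1 in the embryo. Of the 32 bath genes, by contrast, 18 were called higher in the main fit.

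The 18 btb genes, whose products have a BTB domain, had 6 higher and 2 lower calls and a median of 0.32. Their share called, 44.4%, equalled that of all genes. The btb genes ranged from btb-16, at -1.96 ± 0.22, to btb-6, at 0.86 ± 0.22. Set beside other large worm families, the F-box and MATH-domain genes had the larger share of calls, 37.2%, against 9.04% of 166 str chemoreceptor genes (3 higher and 12 lower) and 24.6% of 207 clec lectin genes (18 higher and 33 lower). The difference between the families was not tested. Without replicate 2 or without replicate 3, 6 str genes were called. Among all genes, 5931 and 4948 were called in these settings, against 6698 in the main fit. Signal strength was not measured here, so dim probes cannot be told apart from genes with like levels in both RNAs.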

How the data were processed

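The authors deposited log2 ratios of 20000 probes on 3 arrays. How these were made and centred: not given in the sources used here. The log2 scale was read from the values: read back as ratios, 100% of those within 2 of 0 had 3 decimals (to 0.005 thousandths). The 3 arrays lacked 101, 193 and 156 values. Spot intensities and probe sequences were not used here, so likeness between members was not analysed.

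Gene symbols came from GEO's annotation of the platform (15655 with 1 symbol, 198 with several, 4147 with none). Of the 337 members, 335 matched the WBcel235 RefSeq gene table by gene ID with unchanged symbols. Arrays were centred on their medians and probes of a gene averaged. Each gene's mean was tested against 0 with limma 3.58.1 in R 4.3.3 (lmFit, eBayes; 2 residual degrees of freedom, prior 5.3), with Benjamini-Hochberg adjustment over 15092 genes. Variation of the reference RNA was not separated from that of the adult preps. The fit was tested on simulated data, whose outcome is not reported here.

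The members and lists were chosen with earlier results of these data known. Named genes were, per prefix, the 3 highest and 3 lowest called members with 1 sign on all arrays, the 2 with the widest SD, and members with a known role; of the ligase list the called genes, and of other lists the highest and lowest. Any other gene is marked where it is named. The alternatives tried were no centring, scale and quantile normalization, centring by 32 runs of rows, at least 2 arrays, single probes, a robust prior, array weights, a test against 1.5-fold, and leaving out each replicate. Leaving out replicate 1 together with centring by runs was added after seeing the data.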

Additional observations from a re-analysis of the deposited data

How the results depend on the processing

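No paired analysis was possible because the arrays form 1 group. Of the 124 called members, 124 kept their call and sign under scale normalization and on single probes, 123 under quantile normalization, with a robust prior and with values on at least 2 arrays, 121 with no centring, 122 with array weights and 103 with centring by 32 runs of rows; in each of the settings, none was called with the opposite sign. Without replicates 1, 2 and 3, 115, 98 and 79 of the 124 kept their call and sign. Leaving out 1 replicate gave 83 to 135 called members in all, the fewest without replicate 3. Among all genes, 7102, 5931 and 4948 were called without replicates 1, 2 and 3, against 6698 in the main fit. Centring by runs called 6855 of all genes and array weights 8309. The test against 1.5-fold, which asks for a larger effect, called 2076 of all genes, 28 members (11 fbxa, 0 fbxb, 4 fbxc, 3 math, 10 bath), 3 ligase core genes, 1 other named F-box or MATH gene, 1 btb, 1 str and 14 clec genes. A mean over 2-fold in place of the test gave 16 fbxa, 0 fbxb, 4 fbxc, 4 math and 10 bath genes. With centring by 32 runs, 10 fbxb and 20 math genes were called, the bath median was 0.32 and 21.9% of bath genes lay over 2-fold. Array weights called 29 fbxb, 23 math and 13 btb genes. Without replicate 1 and with centring by runs, 8 fbxb genes were called, the fbxa median was -0.069, the fbxc median turned to -0.022, and 18.8% of bath genes lay over 2-fold. The fbxa median was -0.14 with no centring, -0.14 after quantile normalization and -0.13 after centring by runs, which gave medians of 0.12 for fbxb, 0.03 for fbxc and -0.29 for math. Leaving out 1 replicate gave 6 to 17 fbxb, 9 to 14 ligase core, 4 to 8 other named and 6 to 12 str genes, an fbxa median of -0.19 to -0.13, an fbxc median of 0.06 to 0.12, a math median of -0.29 to -0.12, and 8.09% to 13.9% of fbxa and 0% to 6.17% of fbxb genes over 2-fold. The causes were not tested, and leaving out a replicate changes both the number of arrays and which arrays are used. Centring moved the median of all genes by 0.03 at most.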

Other observations

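A further 6 probes matched members but carried several symbols, so they were in no count. The probe for fbxc-8, fbxc-1, fbxc-2 and fbxc-4 had log2 ratios of -0.69, -0.15 and -0.25 on the arrays of preps 1, 2 and 3, nearer to 0 than the single-symbol probes of fbxc-1, fbxc-2 and fbxc-4. The probe for math-49, math-23 and math-50 had -1.42, -0.39 and -0.79. On the higher side, the probe for F14D2.8 and bath-28 had 0.87, 0.53 and 0.58, and that for fbxc-21 and fbxc-22 had 1.45, 0.34 and 0.61. The probes for fbxa-94 with fbxa-95 and for fbxa-194 with fbxa-118 had means of -0.10 and 0.02.

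Of the members, 4 lacked a value on 1 array and were not tested. The fbxa-178 gene had 0.19 and -0.12 on the arrays of preps 1 and 3, and fbxb-93 had 0.14 and 0.35 on those of preps 2 and 3. The values of fbxb-101 were -0.59 and 0.08 on the arrays of preps 2 and 3, and those of fbxb-103 were 0.64 and 0.42 on those of preps 1 and 2. Another 4 members had 2 probes each. The probes of bath-34 averaged 0.39 and 0.34 and those of fbxb-66 averaged 0.29 and 0.22, while those of fbxa-121 stood further apart, at 0.69 and 0.22.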
